A study of Mus musculus and Homo sapiens with 10 samples.

Results

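The 39 mouse Hox genes lie in 4 clusters, Hoxa, Hoxb, Hoxc and Hoxd, and were read here against lists of lamina-associated domains (LADs). They were taken from an mm10 annotation as the protein-coding genes whose symbol is Hoxa, Hoxb, Hoxc or Hoxd plus a number, which gave 39 of 21523 protein-coding genes on chromosomes 1 to 19 and X. This rule uses gene names alone.

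Hox genes encode homeodomain transcription factors that give cells their position along the body axis. Within a cluster they are numbered by paralog group, and genes with low numbers are used towards the head and in the hindbrain (anterior), those with high numbers towards the tail and in distal limbs (posterior). The nuclear lamina is a protein mesh under the nuclear envelope, and the LADs that touch it are typically gene-poor and little transcribed.

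The study read DamID, in which a chromatin protein fused to the bacterial methyltransferase Dam marks nearby GATC sites, on Nanopore instruments and set it beside DamID read on Illumina instruments. The groups behind the LAD lists are N2A cells, a mouse neuroblastoma line. Those read by Nanopore are LaminB1-Dam (1 sample, with 1 further sample labelled 10% LaminB1-Dam) and Dam alone (1). Those read by Illumina are LaminB1-Dam (2) and Dam alone (1), and there is a wild type (1). The labels give 2 µg/mL doxycycline, the inducer of the fusions, for every sample, Dam alone and wild type included. LaminB1 is a structural protein of the lamina. The sources used here do not say which of these samples entered which consensus list, nor whether the 10% sample did. Each list is a single set of coordinates without values per sample, so no spread between replicates and no test of any difference below could be computed. Sequencing depth was unknown, and the lists hold no expression values by which the cell type could be checked. On chromosomes 1 to 19 and X the Nanopore list held 1174 LADs with a median width of 690 kb and the Illumina list 1149 with a median of 660 kb, and every border lay on a grid of 20 kb steps.

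By midpoint, 8 of the 39 Hox genes (20.5%) fell in Nanopore LADs, against 5 (12.8%) in Illumina LADs. Over all protein-coding genes these shares were 28.9% and 25.4%. LADs of both lists held 4, among them Hoxb1, Hoxb2 and Hoxd1, a state shared by 24.7% of all protein-coding genes. Hoxc12, Hoxc13, Hoxd3 and Hoxd4 lay in Nanopore LADs only, 4 of 39 where all genes gave 4.18%, and Hoxa2 lay in an Illumina LAD only, where all genes gave 0.674%. The other 30 lay in neither, as did 70.4% of all protein-coding genes. Hox genes of a cluster are neighbours on the chromosome and are not independent of each other.

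LADs entered the clusters from an end. Of 8 anterior genes, paralogs 1 to 3, 5 were in Nanopore LADs and as many, 5, in Illumina ones. Of 15 central genes, paralogs 4 to 8, Nanopore LADs held 1, Hoxd4, and Illumina LADs 0. Of 16 posterior genes, paralogs 9 to 13, Nanopore LADs held 2 and Illumina LADs 0. In paralog group 2 both genes were in Illumina LADs and Hoxb2 alone was in a Nanopore LAD. Groups 5 to 11 had no midpoint in a LAD of either list. The shares over all protein-coding genes were 28.9% by Nanopore and 25.4% by Illumina. All anterior genes are in Hoxa, Hoxb and Hoxd, so their counts rest on the LADs at the ends of these clusters.

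**Figure D1:**
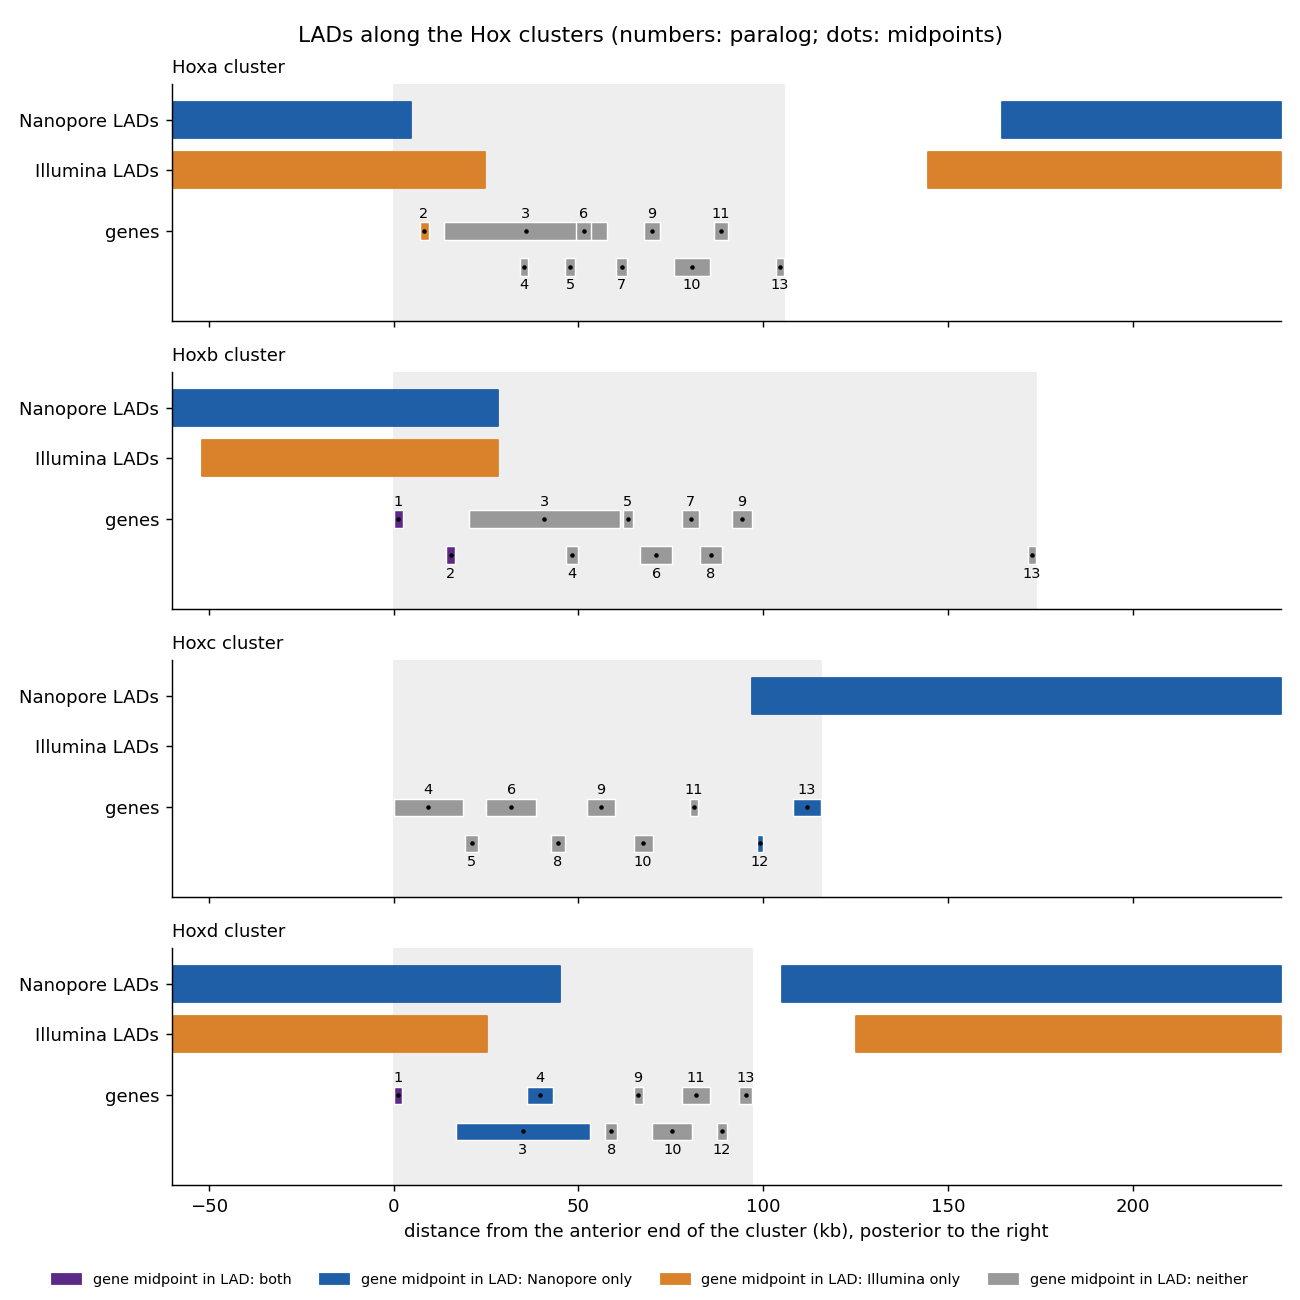
Hox genes and LADs along each cluster, with distance in kb from the anterior end of the cluster on the horizontal axis, Nanopore LADs as blue bars above Illumina LADs as orange bars, and genes as boxes marked with the paralog number and coloured by the list that holds their midpoint; 38 of the 39 genes are drawn. LADs reach into the anterior end of Hoxa, Hoxb and Hoxd, and a Nanopore LAD reaches into the posterior end of Hoxc, where the Illumina list has none.

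The Hoxa cluster lies on chromosome 6 and spans 105.5 kb. LADs covered 4.39% of it by Nanopore and 23.3% by Illumina, all at the anterior end. The Nanopore LAD there ended at position 52160000, and the Illumina LAD ended 1 grid step further on, at 52180000.

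That step took in Hoxa2, which patterns the hindbrain and the second pharyngeal arch (chr6:52162417-52164831). Its midpoint lay 3.62 kb outside the Nanopore LAD and 16.4 kb inside the Illumina LAD. Hoxa3 (chr6:52169059-52213067), needed for thymus and parathyroid, is annotated over 44.0 kb that also hold Hoxa4, Hoxa5 and Hoxa6; its midpoint was in neither list, and 0% of its length was in Nanopore LADs and 24.9% in Illumina LADs. Hoxa4 to Hoxa13 had no base in a LAD of either list. On the posterior side the next LAD began 59.1 kb beyond Hoxa13 by Nanopore and 39.1 kb beyond it by Illumina.

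The Hoxb cluster spans 173.9 kb (chr11:96194316-96368254), the longest of the 4, since Hoxb13 stands apart from the rest. Both lists placed a border at the same point, 96340001, and both covered 16.2% of the span. Hoxb1 (chr11:96365746-96368254), which gives the fourth rhombomere of the hindbrain its identity, and Hoxb2 (chr11:96351632-96354020), also a hindbrain gene, were covered over 100% of their lengths by both. Their midpoints lay 27.0 kb and 12.8 kb from that border with either list. Hoxb3 (chr11:96307101-96347930) straddled it, with 19.4% of its length inside, and Hoxb4 to Hoxb13 had no base in a LAD.

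Beyond the anterior end the lists parted. The Nanopore LAD ran on to 96740000, a width of 400 kb, and the Illumina LAD stopped at 96420000, a width of 80 kb. On the posterior side both lists had the next LAD 2354 kb beyond Hoxb13, a transcription factor gene of prostate and tail, so that Hoxb3 to Hoxb13 lay at the edge of a stretch of 2500 kb without LADs that held 66 protein-coding genes.

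The Hoxc cluster spans 115.7 kb (chr15:102921131-103036856). It has no paralog 1, 2 or 3, and in mm10 runs from Hoxc4 to Hoxc13. Here the end in LADs was the posterior one, and by Nanopore only. A Nanopore LAD of 160 kb (chr15:102780001-102940000) covered 16.3% of the span, with the whole of Hoxc13, a regulator of hair and nail keratins (chr15:102921131-102928814), and of Hoxc12 (chr15:102936826-102938609). The midpoint of Hoxc13 lay 15.0 kb inside that LAD, and that of Hoxc12 2.28 kb inside.

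No Illumina LAD touched the Hoxc cluster. The nearest began 383.1 kb beyond its anterior end, and on the posterior side the nearest ended 4541 kb away. The 9 Hoxc genes thus lay in a stretch of 5040 kb without Illumina LADs that held 150 protein-coding genes. By Nanopore Hoxc4 to Hoxc11 lay in a stretch of 440 kb without LADs that held 15.

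The Hoxd cluster spans 96.9 kb (chr2:74668225-74765142) and had the largest share in LADs of the 4 clusters in both lists, 46.6% by Nanopore and 25.9% by Illumina. Hoxd1 (chr2:74762980-74765142), which in the mouse acts in pain-sensing neurons, lay 44.1 kb inside a Nanopore LAD and 24.1 kb inside an Illumina LAD. The Nanopore LAD reached 45.1 kb into the cluster and the Illumina LAD 25.1 kb, again a difference of 1 grid step.

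The step between them held Hoxd4 (chr2:74721978-74729160), which patterns the hindbrain and neck vertebrae. Its midpoint lay 5.57 kb inside the Nanopore LAD and 14.4 kb outside the Illumina LAD. Hoxd3 (chr2:74711993-74748271), needed for the first neck vertebra, is annotated across Hoxd4. It had 77.9% of its length in the Nanopore LAD and 22.8% in the Illumina LAD, and its midpoint was inside the Nanopore LAD alone.

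On the posterior side of Hoxd, LADs came close in both lists without touching a Hox gene. They stopped 8.22 kb from Hoxd13, the digit patterning gene, by Nanopore and 28.2 kb by Illumina. Hoxd8 to Hoxd13 filled a gap of 60 kb between Nanopore LADs, and Hoxd3 to Hoxd13 with Evx2 a gap of 100 kb between Illumina LADs.

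Of 1154 gaps between Nanopore LADs, 25 were no wider than 60 kb, and 2 of these, the Hoxd gap included, held 6 or more protein-coding genes; the median over them was 1. Of 1129 gaps between Illumina LADs, 146 were no wider than 100 kb, and the Hoxd gap alone held 9 or more. The Hoxa gap was 160 kb by Nanopore and held 11 protein-coding genes, 10 of them Hox genes, and it was the only gap no wider than that, of 281, to hold as many. By Illumina it was 120 kb and held 9 protein-coding genes, all of them Hox genes, and 2 of the 195 gaps no wider, itself included, held 9 or more. By Nanopore, 5 of the 1047 gaps no wider than the Hoxb gap, itself included, held as many genes, and 5 of 596 for Hoxc. By Illumina these counts were 5 of 998 for Hoxb and 2 of 1095 for Hoxc. The gaps were chosen for the Hox genes they hold, which lie close together. A high gene count for their width was thus built into the choice. The median gap over all chromosomes was 440 kb by Nanopore and 420 kb by Illumina.

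Hox genes outside LADs were mostly close to a border. By Nanopore a border lay inside each cluster, and the spans are 96.9 kb to 173.9 kb, so most genes could not be far from one. The counts that follow thus rest on a few borders shared by neighbours, not on separate genes. Of the 31 outside Nanopore LADs, 30 had a border within 100 kb of the midpoint, with Hoxb13 the exception at 144.5 kb, and their median distance was 42.8 kb. Of all protein-coding genes outside Nanopore LADs, 17.5% had a border within 100 kb and the median was 483.9 kb. Of the 34 outside Illumina LADs, 24 had a border within 100 kb, with a median of 44.3 kb, beside 15.5% and 583.2 kb for all genes; the other 10 were Hoxb13 and the 9 Hoxc genes.

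Within each cluster the genes outside LADs can be placed by their distance to the nearest border. In Hoxa, Hoxa4 lay 30.7 kb away by Nanopore and 10.7 kb by Illumina, Hoxa5, a lung gene, 43.2 kb and 23.2 kb, and Hoxa7 57.1 kb and 37.1 kb. The farthest were Hoxa10, of the uterus, at 76.0 kb and 56.0 kb and Hoxa11, of the forearm, at 76.0 kb and 56.0 kb, while Hoxa13, of distal limbs and genitalia, was closer again at 60.1 kb and 40.1 kb. Each Hoxa gene from Hoxa3 on was thus 1 grid step nearer a border by Illumina, on both sides of the cluster. In Hoxb the distances were the same in both lists and grew along the cluster, with 35.2 kb for Hoxb5, 42.8 kb for Hoxb6, 57.6 kb for Hoxb8 and 66.0 kb for Hoxb9.

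In Hoxc the order was the other way round by Nanopore, with Hoxc4 the farthest at 87.5 kb, Hoxc8 at 52.4 kb, Hoxc9, of thoracic motor neurons, at 40.7 kb, Hoxc10, of lumbar ones, at 29.3 kb and Hoxc11 at 15.6 kb. By Illumina the distances ran from 392.5 kb for Hoxc4 to 495.0 kb for Hoxc13, all to the LAD beyond the anterior end. In Hoxd, Hoxd10 was the farthest in both lists, 29.7 kb by Nanopore and 49.7 kb by Illumina, and no Hoxd gene was farther from a LAD than these values. Hoxd8 lay 13.7 kb and 33.7 kb away, Hoxd11, of the forearm, 23.3 kb and 43.3 kb, and Hoxd13 9.91 kb and 29.9 kb.

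The members inside LADs were also near a border. All 8 in Nanopore LADs were within 50 kb of it, from 2.28 kb for Hoxc12 to 44.1 kb for Hoxd1, and all 5 in Illumina LADs, from 12.8 kb for Hoxb2 to 27.0 kb for Hoxb1. Of all protein-coding genes inside LADs, 12.6% by Nanopore and 14.0% by Illumina were as close. LADs reached at most 45.1 kb into a span by Nanopore and 28.3 kb by Illumina, so no member inside could lie farther from a border. The 8 and 5 members thus rest on a few LAD ends and cannot be set against those shares as separate genes. Since a grid step is 20 kb, a border moved by 1 step takes members in or out. With every LAD widened by 1 step at each end, 14 Hox genes fell in Nanopore LADs and 10 in Illumina LADs, beside 31.0% and 27.3% of all protein-coding genes. With every LAD narrowed likewise, 2 and 3 did, beside 27.4% and 23.9%.

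**Figure D2:**
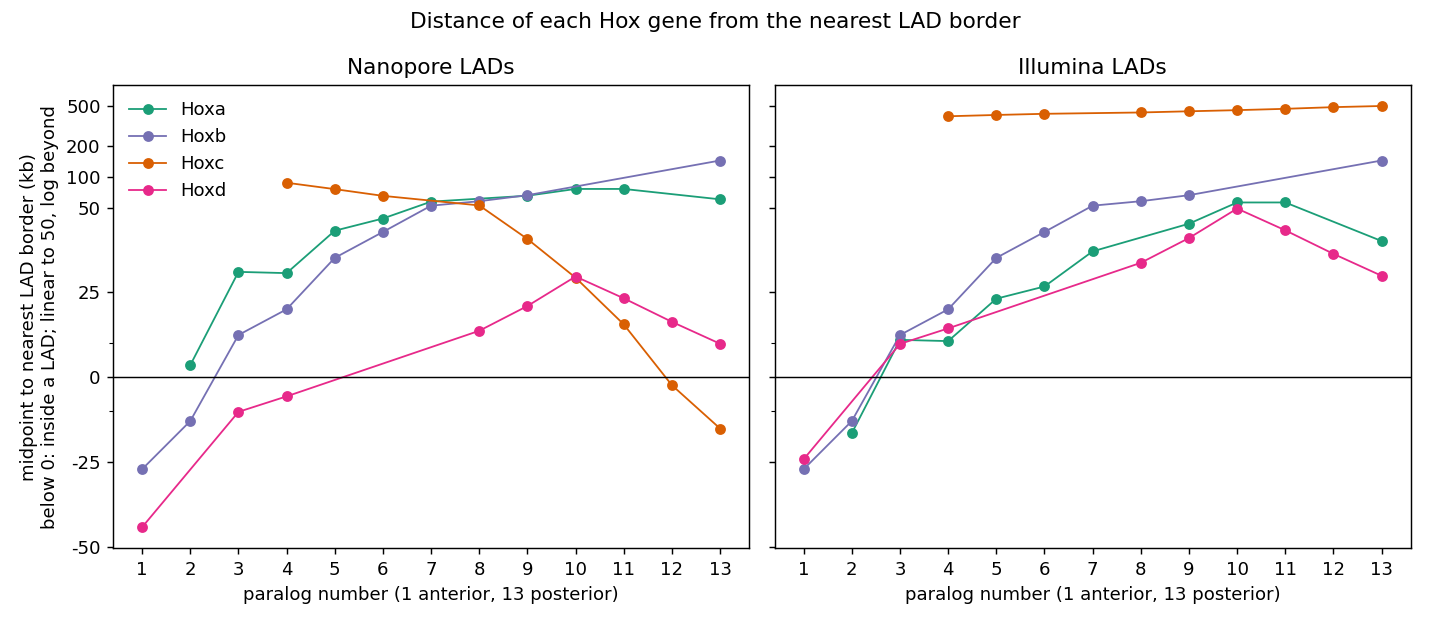
Distance in kb from the midpoint of each Hox gene to the nearest LAD border against paralog number, for Nanopore LADs on the left and Illumina LADs on the right, with lines joining genes of a cluster and values below 0 for genes inside LADs; the vertical axis is linear to 50 kb and logarithmic beyond; 38 of the 39 genes are drawn. Hoxb and Hoxd start inside LADs in both panels, Hoxd and Hoxa turn back towards a LAD at their posterior ends, and Hoxc ends inside a Nanopore LAD but 495.0 kb from an Illumina LAD.

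Gene bodies that cross a border were mostly those of the long paralog 3 genes. In Nanopore LADs 3 Hox genes were partly covered, among them Hoxb3 and Hoxd3, 3.63% over all genes being so, and in Illumina LADs 3 were (Hoxa3, Hoxb3 and Hoxd3), beside 3.15%. Counting any overlap gave 9 Hox genes by Nanopore and 8 by Illumina, beside 30.4% and 26.6% of all genes, and no central or posterior gene then touched an Illumina LAD. Counting only genes covered over their whole length gave 6 by Nanopore and 5 by Illumina, beside 26.8% and 23.5% of all genes.

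Start sites were placed against the borders as well, for the genes with a promoter entry. The RefSeq promoter table (GRCm38.p6, the assembly behind mm10) covers 250 bases before to 50 after a start site and held 24 promoters of 22 Hox genes, of 21045 promoters of 17274 protein-coding genes. Start sites of Hoxb1, Hoxd1 and Hoxd4 lay in Nanopore LADs and those of Hoxb1, Hoxd1 and Hoxa2 in Illumina LADs, 3 of 24 each, beside 26.9% and 23.6% of all promoters. The start site of Hoxd3, at 74711993, lay in neither list, unlike its midpoint. The sequences of these promoters in LADs follow 5′ to 3′ on the strand of the gene, at chr6:52164782-52165081 (minus strand) for Hoxa2, chr11:96365508-96365807 (plus) for Hoxb1, chr2:74762730-74763029 (plus) for Hoxd1 and chr2:74721728-74722027 (plus) for Hoxd4. Capitals mark GATC, the sequence Dam methylates, which reads the same on both strands and is shown because DamID can report on a place only through it.
Hoxa2 promoter: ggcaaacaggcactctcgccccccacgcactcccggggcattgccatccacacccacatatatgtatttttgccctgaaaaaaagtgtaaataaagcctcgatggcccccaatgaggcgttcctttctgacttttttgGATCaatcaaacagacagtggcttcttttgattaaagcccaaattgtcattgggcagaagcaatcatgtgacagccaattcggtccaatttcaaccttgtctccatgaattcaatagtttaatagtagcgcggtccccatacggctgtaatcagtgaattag
Hoxb1 promoter: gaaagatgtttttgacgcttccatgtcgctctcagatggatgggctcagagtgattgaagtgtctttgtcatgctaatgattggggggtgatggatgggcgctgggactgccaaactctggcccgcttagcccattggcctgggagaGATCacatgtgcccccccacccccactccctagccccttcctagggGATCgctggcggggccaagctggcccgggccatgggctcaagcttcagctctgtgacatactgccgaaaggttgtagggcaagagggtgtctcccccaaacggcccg
Hoxd1 promoter: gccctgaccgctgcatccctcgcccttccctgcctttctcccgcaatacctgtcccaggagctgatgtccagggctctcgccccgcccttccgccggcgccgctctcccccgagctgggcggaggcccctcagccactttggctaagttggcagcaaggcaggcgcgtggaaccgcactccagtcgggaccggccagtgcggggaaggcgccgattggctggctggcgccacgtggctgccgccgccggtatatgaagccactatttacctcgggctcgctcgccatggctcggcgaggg
Hoxd4 promoter: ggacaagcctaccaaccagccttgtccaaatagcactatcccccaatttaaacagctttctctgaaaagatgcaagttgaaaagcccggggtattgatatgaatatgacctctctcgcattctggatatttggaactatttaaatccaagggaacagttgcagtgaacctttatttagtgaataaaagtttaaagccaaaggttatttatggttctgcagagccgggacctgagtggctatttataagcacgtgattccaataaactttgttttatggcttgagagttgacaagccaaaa

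Hoxb1 has 2 GATC sites in this window, Hoxa2 has 1, and Hoxd1 and Hoxd4 have none. Of the 24 Hox promoters, 16 (66.7%) held at least 1 GATC, and of all protein-coding promoters 46.2% did. The 4 promoters differ in CpG content: Hoxd1 holds 29 CpGs, Hoxb1 10, Hoxa2 9 and Hoxd4 4, with a median of 14.5 over the Hox promoters and 13 over all. Promoters that start in Nanopore LADs held a median of 3 CpGs over all protein-coding genes, and those outside 17. These are counts in windows of 300 bases and say nothing of sites elsewhere in a 20 kb grid step.

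The clusters also hold 31 genes of other kinds, 24 lncRNAs, 6 microRNAs and 1 pseudogene. Nanopore LADs held the midpoints of 5 and Illumina LADs those of 8. Of all 23599 lncRNA, microRNA and pseudogene entries on the same chromosomes, Nanopore LADs held 45.5% and Illumina LADs 40.6%. Hotairm2 in the Hoxa cluster, Hoxb3os, which overlaps parts of Hoxb3 and Hoxb2, and Haglr and Gm14424 between Hoxd3 and Hoxd1 were in both. By midpoint, Hotairm1, Hoxaas2, Gm15050 and 5730596B20Rik, all at the anterior end of Hoxa, were in Illumina LADs only, and Mir10b was in a Nanopore LAD only. Hotairm1 still had 42.2% of its length in the Nanopore LAD, with its midpoint 0.272 kb outside. The midpoint of 5730596B20Rik was 0.997 kb inside the Illumina LAD, which covered 77.0% of its length. Hotair, the lncRNA between Hoxc11 and Hoxc12 that in human cells has been tied to silencing of the HOXD cluster, lay outside both lists, with its midpoint 6.0 kb from the Nanopore LAD that holds Hoxc12.

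All microRNAs of the clusters but Mir615 belong to the miR-10 or miR-196 family, which, like the Hox genes, have copies in several clusters. Mature sequences of these families are shown because the miR-10 copies share a seed and differed in LAD state by Nanopore, while the miR-196 copies did not. Mir10a lies beside Hoxb4 and Mir10b within the annotated span of Hoxd4; Mir196b lies between Hoxa9 and Hoxa10, Mir196a-1 next to Hoxb9 and Mir196a-2 between Hoxc9 and Hoxc10. Sequences are mature 5p arms from RefSeq (GRCm38.p6), with the seed, bases 2 to 8, in capitals.
miR-10a-5p: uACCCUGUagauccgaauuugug
miR-10b-5p: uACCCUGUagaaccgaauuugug
miR-196a-5p: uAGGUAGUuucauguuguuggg
miR-196b-5p: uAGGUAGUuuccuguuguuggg

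Both miR-10 copies carry the seed ACCCUGU, and all 3 miR-196 genes the seed AGGUAGU. Mir10b (chr2:74726070-74726137) lay 6.10 kb inside a Nanopore LAD and 13.9 kb outside the Illumina LAD, the same state as Hoxd4. Mir10a (chr11:96317165-96317274) lay 22.8 kb outside the LADs of both lists, like Hoxb4. The 3 miR-196 genes lay outside both lists, 33.4 kb from the nearest Nanopore LAD for Mir196a-2, 70.1 kb for Mir196b and 74.8 kb for Mir196a-1. Mir615, within Hoxc5, was also outside both.

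Around the clusters LAD cover ranged widely and depended on the window. With 500 kb added on each side, Nanopore LADs covered 94.5% of the Hoxd neighbourhood and Illumina LADs 90.9%, where the whole of chromosome 2 had 53.7% and 45.6%. The Hoxa neighbourhood had 56.5% by Nanopore and 47.0% by Illumina, with 61.2% and 58.3% over chromosome 6. The Hoxb neighbourhood had 34.1% and 6.81%, with 44.7% and 41.5% over chromosome 11. The Hoxc neighbourhood had 28.4% and 10.5%, with 58.0% and 52.0% over chromosome 15. With 1 Mb added on each side, Hoxd had 61.0% by Nanopore and 53.4% by Illumina, nearer the shares of its chromosome, and Hoxa 50.6% and 51.6%. In that window Hoxb had 18.4% and 3.68%, and Hoxc 35.9% and 24.6%. Chromosome shares were taken from 3 Mb, where placed sequence starts, to the last gene or LAD.

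The Hoxd cluster lay between a Nanopore LAD of 700 kb on its anterior side (chr2:74720001-75420000) and another of 580 kb on its posterior side (chr2:74080001-74660000). The Illumina LADs were 560 kb on each side, and the outer border on the posterior side, 74080001, was the same in both lists. These flanks are gene deserts known to carry the enhancers that drive Hoxd genes in limbs. Within 500 kb they hold 3 protein-coding genes. Mtx2, which encodes a mitochondrial import protein, and Lnpk, which encodes an endoplasmic reticulum protein, lay in LADs of both lists. Evx2, a homeobox gene next to Hoxd13, had its midpoint 2.75 kb inside the Nanopore LAD and 17.3 kb outside the Illumina LAD.

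The Hoxa cluster lay between LADs of 280 kb on the anterior and 200 kb on the posterior side by Nanopore, and of 300 kb and 220 kb by Illumina. The far borders of both, 51880001 and 52520000, were the same in both lists. Skap2, an adaptor protein gene on the anterior side, was in LADs of both lists. Evx1, the homeobox gene beyond Hoxa13, lay 4.06 kb outside the Nanopore LAD and 15.9 kb inside the Illumina LAD, the reverse of its paralog Evx2 at Hoxd.

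**Figure D3:**
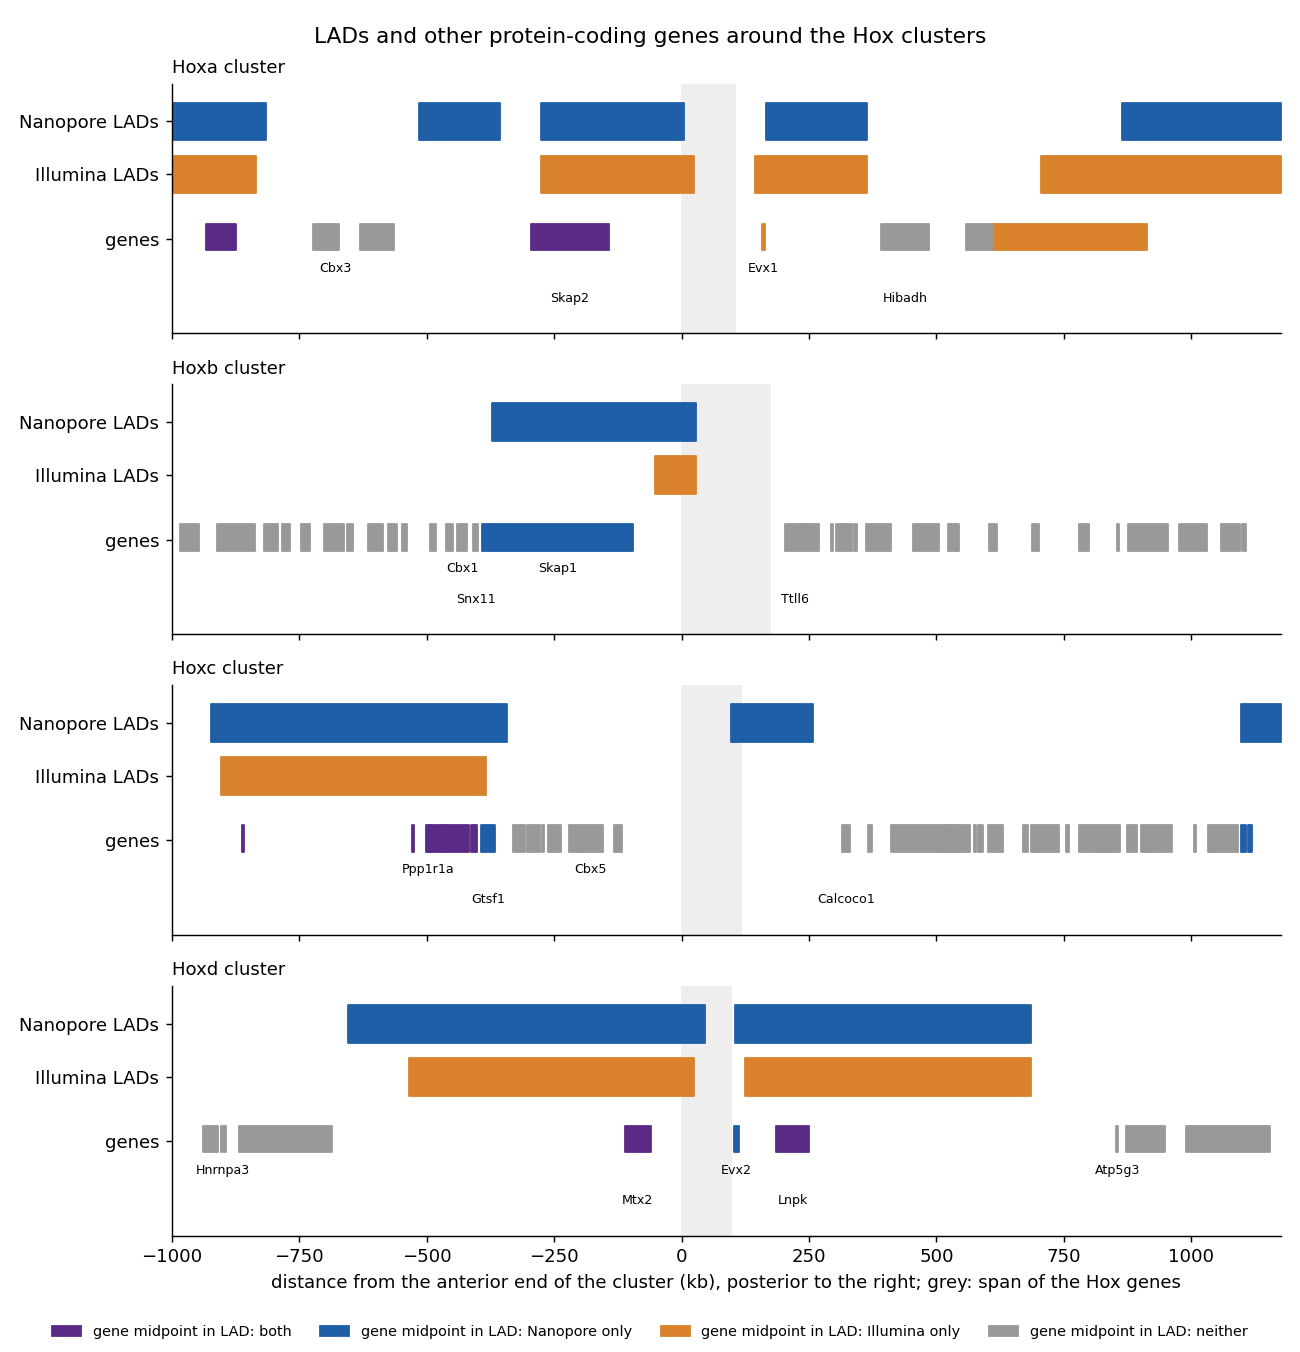
LADs and other protein-coding genes within 1 Mb of each cluster, with distance in kb from the anterior end on the horizontal axis, the span of the Hox genes in grey, Nanopore LADs in blue, Illumina LADs in orange and genes coloured by the list that holds their midpoint. Hoxd lies between wide LADs on both sides, 700 kb and 580 kb by Nanopore, Hoxa between narrower ones, and most genes on the posterior sides of Hoxb and Hoxc are outside LADs, 2 of 30 at Hoxc being in a Nanopore LAD.

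At Hoxb and Hoxc most neighbours lay outside LADs. Of 17 protein-coding neighbours within 500 kb of Hoxb, Skap1, an adaptor gene of T cells, lay in a Nanopore LAD, and Illumina LADs held none. Of 23 near Hoxc, Nanopore LADs held 5 (Gtsf1, Gtsf2, Nckap1l, Pde1b and Ppp1r1a) and Illumina LADs 4, all of these but Gtsf1; these lie together from 365.6 kb beyond Hoxc4. Over the 4 clusters, 10 of 47 neighbours (21.3%) fell in Nanopore LADs and 8 (17.0%) in Illumina ones, beside the 28.9% and 25.4% of all protein-coding genes.

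The Hox clusters arose by duplication of a longer stretch, and several neighbours are copies of each other too; these pairs were picked out after their values were seen. Skap2 at Hoxa was in LADs of both lists and Skap1 at Hoxb in a Nanopore LAD only. The genes for heterochromatin protein 1, Cbx3 near Hoxa, Cbx1 near Hoxb and Cbx5 near Hoxc, were in neither list. The ATP synthase genes Atp5g1 near Hoxb, Atp5g2 near Hoxc and Atp5g3 near Hoxd were in neither list. So were Calcoco2 and Calcoco1 near Hoxb and Hoxc, Snx10 and Snx11 near Hoxa and Hoxb, and Hnrnpa1 and Hnrnpa3 near Hoxc and Hoxd. Of these, Snx10, Cbx3, Atp5g3 and Hnrnpa3 lie beyond 500 kb, from 564.7 kb to 894.0 kb from their clusters. Absence from both lists is the usual state, at 70.4% of all protein-coding genes.

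Other genes of the Hox system were counted in the same way. Of 15 ParaHox and other relatives of the Hox genes, Evx1 and Evx2 included, Nanopore LADs held 5 and Illumina LADs 3, counts near the shares of 28.9% and 25.4% over all protein-coding genes, which also stand beside the lists that follow. Meox2, a gene of muscle and vessel development, was in both. The 3 genes of the ParaHox cluster on chromosome 5, Gsx1, Pdx1 and Cdx2, act in brain, pancreas and intestine. They shared 1 Nanopore LAD, 49.8 kb to 127.0 kb from a border, and were in no Illumina LAD. The Nanopore count of 5 thus rests on fewer LADs than genes. En1, a midbrain gene, was in an Illumina LAD only. Of 9 genes for cofactors that bind DNA with Hox proteins, Pknox2 was in both lists and no other was in a LAD. Of 27 Polycomb genes, whose products repress Hox genes, Nanopore LADs held Phc1 and Illumina LADs none, and of 10 Trithorax and related genes, whose products keep Hox genes active, Nanopore LADs held Kdm6a, on the X chromosome, and Illumina LADs none. Of 15 genes of retinoic acid signalling, which turns on anterior Hox genes, Aldh1a1 and Aldh1a2, for synthesis, and Rarb and Rxrg, for receptors, were in both lists, a share of 26.7% in each.

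**Figure D4:**
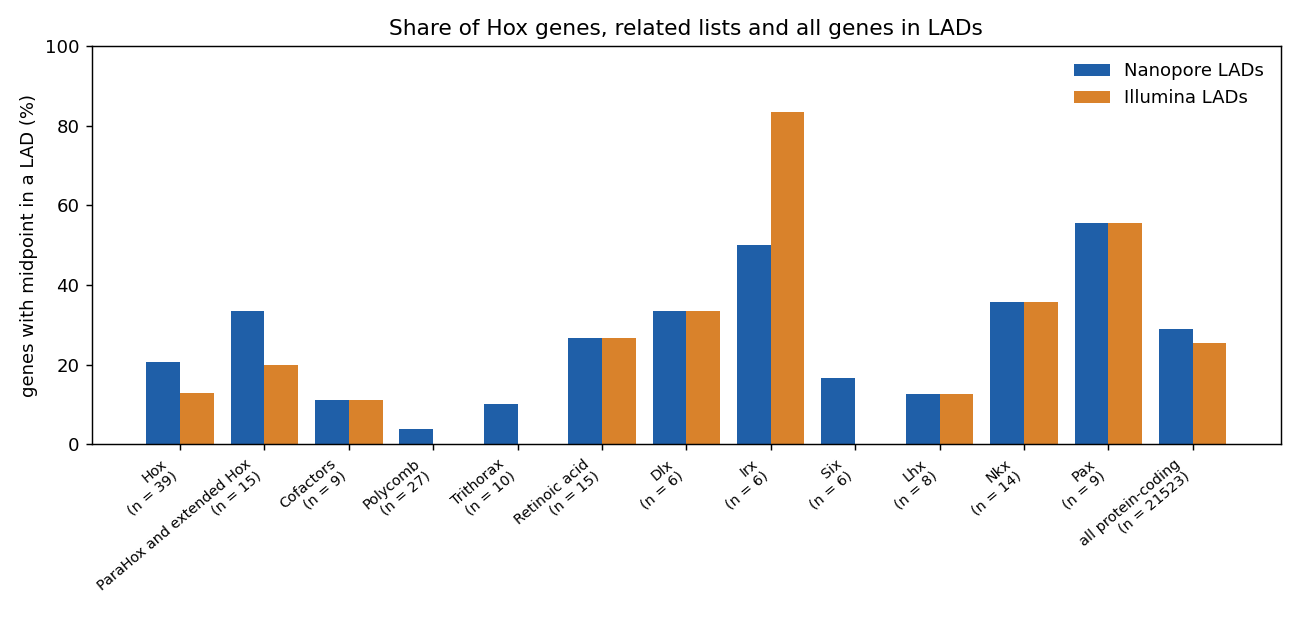
Share of genes with their midpoint in a LAD, in percent on the vertical axis, for the Hox genes, lists of related genes and all protein-coding genes, with Nanopore LADs in blue left of Illumina LADs in orange and the number of genes under each name. Hox genes stand at 20.5% by Nanopore and 12.8% by Illumina, and all protein-coding genes at 28.9% and 25.4%; the shares of short lists rest on a few genes each, from 6 in the Dlx family to 27 for Polycomb.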

How the data were processed

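DNA from N2A cells was profiled by DamID. The values used were interval coordinates, a score or other value per interval being absent, in 2 lists of consensus LADs that the authors deposited. Per the submitters' processing notes, minimap2, SAMtools, deepTools and bedtools were used with the builds mm10 and hg38. The sources used here give no roles, versions, LAD caller or thresholds. The grid of 20 kb limits the precision of each border.

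Genes came from the RefSeq annotation of GRCm38.p6 (49997 rows), on chromosomes 1 to 19 and X; 340 genes listed below 3 Mb were left out. Each gene was placed by its midpoint, as the table gives no strand. All 39 Hox genes matched and were counted, but not every gene is reported singly here. Named genes are the Hox genes, other genes inside a cluster, the 3 nearest protein-coding genes on each side, neighbours within 500 kb in a LAD, and listed genes in a LAD. The members and lists were chosen with earlier results of these data known. No test was run; main counts stand beside the share of all protein-coding genes, or of all genes of the same kinds. Alternatives changed gene placement, LAD borders, spans and windows. Interval functions were tested on simulated data. Human CTCF peaks and protein sequences were not used here. Python 3.11.15, numpy 2.4.6 and pandas 2.3.3 were used.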

Additional observations from a re-analysis of the deposited data

How the results depend on the processing

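Of 70 alternative values, 46 stayed within 1.5 times the value reported and 24 did not. Some of the 46 could not move, so that count is no measure of robustness. They include the values with LADs merged, and the 0% of Hoxc in Illumina LADs when LADs were narrowed or left out. Most of the 24 that moved came from moving every LAD border by 1 grid step of 20 kb. With LADs widened by it, the count of Hox genes in LADs was 14 by Nanopore and 10 by Illumina, and the share of a span in LADs was 23.3%, 27.7%, 33.6% and 79.4% by Nanopore for Hoxa, Hoxb, Hoxc and Hoxd and 42.3%, 27.7% and 46.6% by Illumina for Hoxa, Hoxb and Hoxd. With LADs narrowed by it, the counts were 2 by Nanopore and 3 by Illumina, Hoxb1 and Hoxd1 among both, and the shares were 0%, 4.75%, 0% and 25.9% by Nanopore and 4.39%, 4.75% and 5.31% by Illumina in the same order. Over all protein-coding genes these shifts gave 31.0% and 27.4% by Nanopore and 27.3% and 23.9% by Illumina.

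Without LADs under 100 kb, Hoxb1 and Hoxb2 left the Illumina list, its count was 3 (25.2% over all protein-coding genes) and its share of the Hoxb span 0%, since its LAD there is 80 kb wide. Any overlap gave 8 Hox genes by Illumina. Between the first and last midpoint, 2.26% of Hoxa was in Nanopore LADs. A window of 250 kb held 19 neighbours, 5 in Nanopore LADs (26.3%) and 4 in Illumina LADs (21.1%), and a window of 1 Mb held 104, 15 in Nanopore LADs (14.4%) and 12 in Illumina LADs (11.5%). Merging LADs up to 40 kb apart changed none of the values, but it could not. No gap at a cluster was under 60 kb, and the counts over all protein-coding genes stayed at 6223 by Nanopore and 5469 by Illumina. No paired analysis was possible because the lists hold no values per sample, and no replicate could be left out for that reason. Depth is unknown, and the error of a border could not be estimated.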

Other observations

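Other homeobox and paired-box families, found by symbol, were placed in LADs for 17 of 49 genes (34.7%) by Nanopore and for 18 (36.7%) by Illumina, beside 28.9% and 25.4% of all protein-coding genes. Pax genes had 5 of 9 in each list, among them Pax1, Pax3, Pax6 and Pax8, and Nkx genes 5 of 14, among them Nkx2-1 and Nkx2-2. Irx genes had 3 of 6 by Nanopore and 5 by Illumina, with Irx3 and Irx4 in the Illumina list only. Dlx5 and Dlx6, neighbours on chromosome 6, were in both lists, and Six6 was in a Nanopore LAD, 1 of 6 genes of its family, with none in Illumina LADs. Lhx genes had 1 of 8 in each list, Lhx8. In both lists several of these genes shared a LAD: Nkx2-2, Nkx2-4 and Pax1 on chromosome 2, and Nkx2-1, Nkx2-9 and Pax9 on chromosome 12. Irx1 and Irx2 on chromosome 13 did so too. The counts thus rest on fewer LADs than genes and are not counts of separate genes. They were not tested against the Hox genes.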
